A study of Homo sapiens with 4 samples.

Results

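The genes described here are 10 members of the Notch pathway, found by symbol in the count tables of a study of BEAS-2B cells and making up 10 of the 24424 genes listed there. They are the receptors NOTCH1, NOTCH2 and NOTCH3, the ligands JAG1, JAG2 and DLL1, the transcriptional targets HES1, HES4 and HEY1, and the feedback inhibitor NRARP. BEAS-2B cells come from human bronchial epithelium and were immortalised, and the genotype of every group is labelled wild type. There was 1 RNA sequencing library in each of 4 groups: cells transfected with siRNA against occludin for 24 h and then given LPS for 2 h (siOCLN+LPS), cells transfected with wild-type occludin for 24 h and then given LPS for 2 h (labelled wtOCLN+LPS), cells given LPS for 2 h, and untreated control cells. LPS is bacterial lipopolysaccharide, and occludin, encoded by OCLN, is a tight junction protein. The labels of the LPS and control libraries mention no transfection and no mock transfection, so an effect of transfection cannot be told apart from one of the siRNA or of the occludin construct.

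Notch signalling passes between touching cells. A Delta-like or Jagged ligand on one cell binds a Notch receptor on its neighbour, the receptor is cut by an ADAM protease and then by gamma-secretase, and the freed intracellular domain enters the nucleus, where it joins the DNA-binding protein RBPJ and a Mastermind-like coactivator to switch on genes of the HES and HEY families and NRARP. HES and HEY proteins are transcriptional repressors, and NRARP binds the intracellular domain and limits its action. In the airway, Notch signalling in the progeny of basal cells is known to favour the secretory over the ciliated fate.

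Because HES1, HES4 and NRARP are read as outputs of the pathway, the letters before their starts are shown, from RefSeq on GRCh38.p14. The submitters' processing notes name hg19 for the counts, so these coordinates belong to the RefSeq sequences alone. Each run is the 250 bases before the annotated start, 5′ to 3′ on the strand of the gene. Capitals mark TGGGAA, the core of the site bound by RBPJ, in either orientation. HES1 lies at chr3:194135898-194136147 on the plus strand, HES4 at chr1:1000098-1000347 on the minus strand and NRARP at chr9:137302272-137302521 on the minus strand.
HES1: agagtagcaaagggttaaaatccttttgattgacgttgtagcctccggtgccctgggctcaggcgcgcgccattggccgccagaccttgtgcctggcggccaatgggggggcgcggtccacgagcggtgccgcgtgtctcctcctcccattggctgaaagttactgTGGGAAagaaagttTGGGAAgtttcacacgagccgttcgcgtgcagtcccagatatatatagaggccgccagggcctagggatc
HES4: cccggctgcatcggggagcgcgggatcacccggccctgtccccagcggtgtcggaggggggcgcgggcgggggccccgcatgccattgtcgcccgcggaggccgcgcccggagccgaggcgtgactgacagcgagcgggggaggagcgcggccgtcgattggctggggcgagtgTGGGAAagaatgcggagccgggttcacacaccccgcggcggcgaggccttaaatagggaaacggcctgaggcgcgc
NRARP: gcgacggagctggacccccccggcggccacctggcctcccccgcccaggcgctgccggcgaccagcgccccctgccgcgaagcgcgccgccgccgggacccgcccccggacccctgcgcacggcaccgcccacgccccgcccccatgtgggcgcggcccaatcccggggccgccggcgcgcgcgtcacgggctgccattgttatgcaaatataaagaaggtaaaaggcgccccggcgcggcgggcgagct
Of 10 members, 8 had an entry in this table. HES1 held TGGGAA at 2 places, starting 84 and 70 bases before the start, and HES4 held it once, 76 bases before the start. The longer form GTGGGAA, which contains TGGGAA, was found once in each of these. None of the other 6 windows held TGGGAA, which was present on either strand in 21.1% of 27305 windows of the same length. GTGGGAA was present in 5.46% of them. None of the 8 windows held the E-box CACGTG, which 6.49% of all windows contain. These matches describe letters and no binding was measured.

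Library totals were 17476333 counts in siOCLN+LPS, 17500031 in the library labelled wtOCLN+LPS, 13867494 in LPS and 15889736 in control. Levels are given as CPM, the count of a gene per 1000000 counts of its library, in which 1 count was worth 0.0571 to 0.0721 CPM. With 1 library per group there is no replicate check, no p-value is given, and each statement compares libraries. The 95% intervals hold the error of counting alone, since no second culture shows how much cultures vary. OCLN was at 21.0 CPM in siOCLN+LPS, 29.7 CPM in the library labelled wtOCLN+LPS, 50.4 CPM in LPS and 55.4 CPM in control. The OCLN counts of the library labelled wtOCLN+LPS thus go against its label. No direction drawn from that library can be read as one of raised occludin. Whether the counted OCLN model takes in reads of the transfected construct is not given in the sources used here, and an exchange of libraries was not tested. The cells had epithelial keratins (KRT7 at 742 to 1305 CPM and KRT8 at 372 to 976 CPM), but EPCAM lay between 1.26 and 2.67 CPM and CLDN4 under 1 CPM in all 4 libraries. The ciliated regulator FOXJ1 and the club cell gene SCGB1A1 had 0 counts in every library, which allows up to 0.171 to 0.216 CPM (3 counts). The fibroblast markers COL1A1, PDGFRB and THY1 reached 1 CPM in all 4 libraries, and endothelial markers summed to between 2.17 and 4.28 CPM.

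NOTCH2 was the most abundant receptor and HES4 the most abundant target when levels were divided by transcript length. On this scale, CPM per kb of the longest GENCODE 29 transcript, NOTCH2 stood at 24.3 in siOCLN+LPS, 24.2 in the library labelled wtOCLN+LPS, 33.0 in LPS and 28.6 in control. HES4 stood at 25.1, 33.7, 26.8 and 26.8 CPM per kb in the same libraries. JAG1 came next in every library, at 15.0 to 21.9 CPM per kb, followed by HES1, at 6.95 to 14.2 CPM per kb. The intervals of NOTCH2 and HES4 overlapped in siOCLN+LPS and control, and those of the neighbouring pair JAG1 and HES1 did not overlap in any library.

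Of the summed receptor level per kb, NOTCH2 made up 80.5% in siOCLN+LPS, 78.3% in the library labelled wtOCLN+LPS, 86.4% in LPS and 79.3% in control. NOTCH3 made up between 1.57% and 2.01%. Among the 3 ligands, JAG1 held 74.2% of the summed level per kb in siOCLN+LPS, 73.8% in the library labelled wtOCLN+LPS, 84.5% in LPS and 76.9% in control. DLL1 held 13.8% and 13.9% of it in siOCLN+LPS and the library labelled wtOCLN+LPS, 7.13% in LPS and 6.20% in control. HEY1 had the lowest value in every library, at 0.0747 to 0.439 CPM per kb, and its interval overlapped that of NOTCH3 in LPS and in control.

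**Figure D1:**
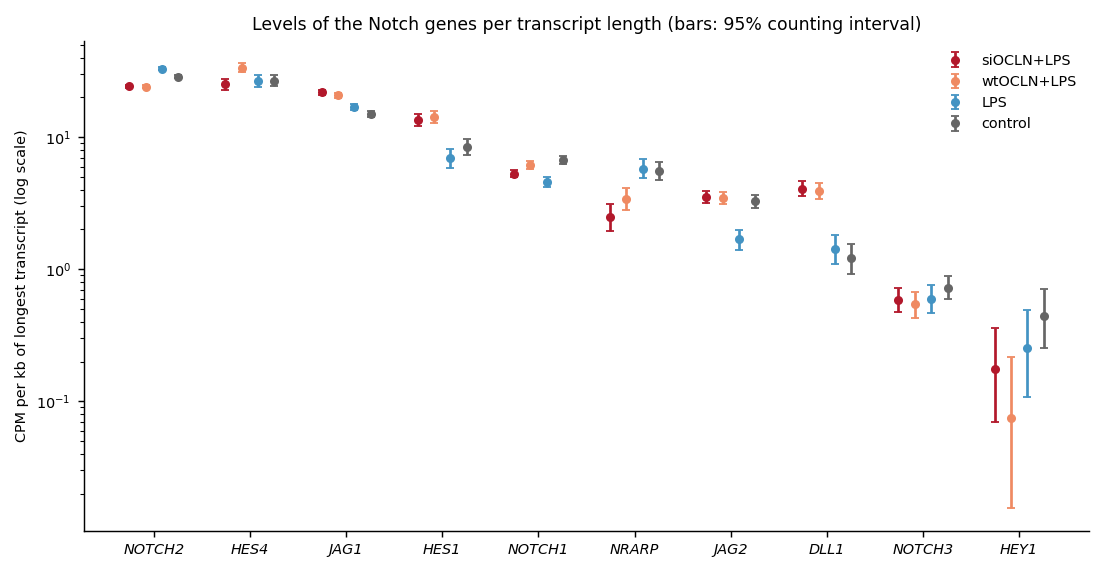
Levels of the 10 Notch genes as CPM per kb of the longest transcript (log axis), ordered by the control library, with 1 point per library and bars for the 95% counting interval. NOTCH2, HES4 and JAG1 lead in all 4 libraries and HEY1 has the lowest value in each, with its bar overlapping that of NOTCH3 in LPS and control.

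The ligands DLL1 and JAG2 had the highest folds over LPS in both transfected libraries, JAG2 closely followed by the target HES1, and the feedback gene NRARP had the lowest among the 9 members at 1 CPM or more. DLL1, a Delta-like ligand, was at 12.9 CPM in siOCLN+LPS, 12.5 CPM in the library labelled wtOCLN+LPS, 4.54 CPM in LPS and 3.84 CPM in control, from 226, 218, 63 and 61 counts. Both transfected libraries were therefore high and both others low, with no overlap of intervals between these pairs. Against LPS, the DLL1 folds were 2.85 (2.14 to 3.83) for siOCLN+LPS and 2.74 (2.06 to 3.69) for the library labelled wtOCLN+LPS. Against control the folds were 3.37 (2.53 to 4.55) in siOCLN+LPS and 3.24 (2.43 to 4.38) in the library labelled wtOCLN+LPS, so the difference did not rest on the LPS library. The transfected libraries differed by less than counting error, with a fold of 1.04 for siOCLN+LPS over the library labelled wtOCLN+LPS (0.858 to 1.26). FAM120B, which overlaps DLL1 on the opposite strand in GENCODE 29, was at 39.9 CPM in siOCLN+LPS, 37.4 CPM in the library labelled wtOCLN+LPS, 40.3 CPM in LPS and 43.4 CPM in control. Whether the counting used strand is not given in the sources used here, so reads of this pair may not have been told apart.

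JAG2, a Jagged ligand, followed another pattern, in which LPS alone stood apart. It was at 20.7 CPM in siOCLN+LPS, 20.2 CPM in the library labelled wtOCLN+LPS, 9.81 CPM in LPS and 19.2 CPM in control, from 362, 353, 136 and 305 counts. The LPS library was low and the other 3 overlapped in their intervals. JAG2 was 1.96-fold lower in LPS than in control (1.59 to 2.41), and ranked 51 from the lowest of 13551 genes tested in that comparison. Over LPS its folds were 2.11 (1.73 to 2.59) for siOCLN+LPS and 2.06 (1.68 to 2.53) for the library labelled wtOCLN+LPS. Set against control in place of LPS, these folds were 1.08 (0.924 to 1.26) and 1.05 (0.899 to 1.23), so that JAG2 differed from LPS in each case through the low LPS value.

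JAG1, the most abundant of the ligands, moved less. It was at 130 CPM in siOCLN+LPS, 124 CPM in the library labelled wtOCLN+LPS, 101 CPM in LPS and 89.2 CPM in control. The 4 libraries stood in that order, and only the intervals of the transfected libraries overlapped. The JAG1 folds were 1.29 (1.21 to 1.38) for siOCLN+LPS over LPS, 1.23 (1.15 to 1.31) for the library labelled wtOCLN+LPS over LPS and 1.13 (1.05 to 1.22) for LPS over control. Its highest fold was 1.46 (1.36 to 1.56), for siOCLN+LPS over control.

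**Figure D2:**
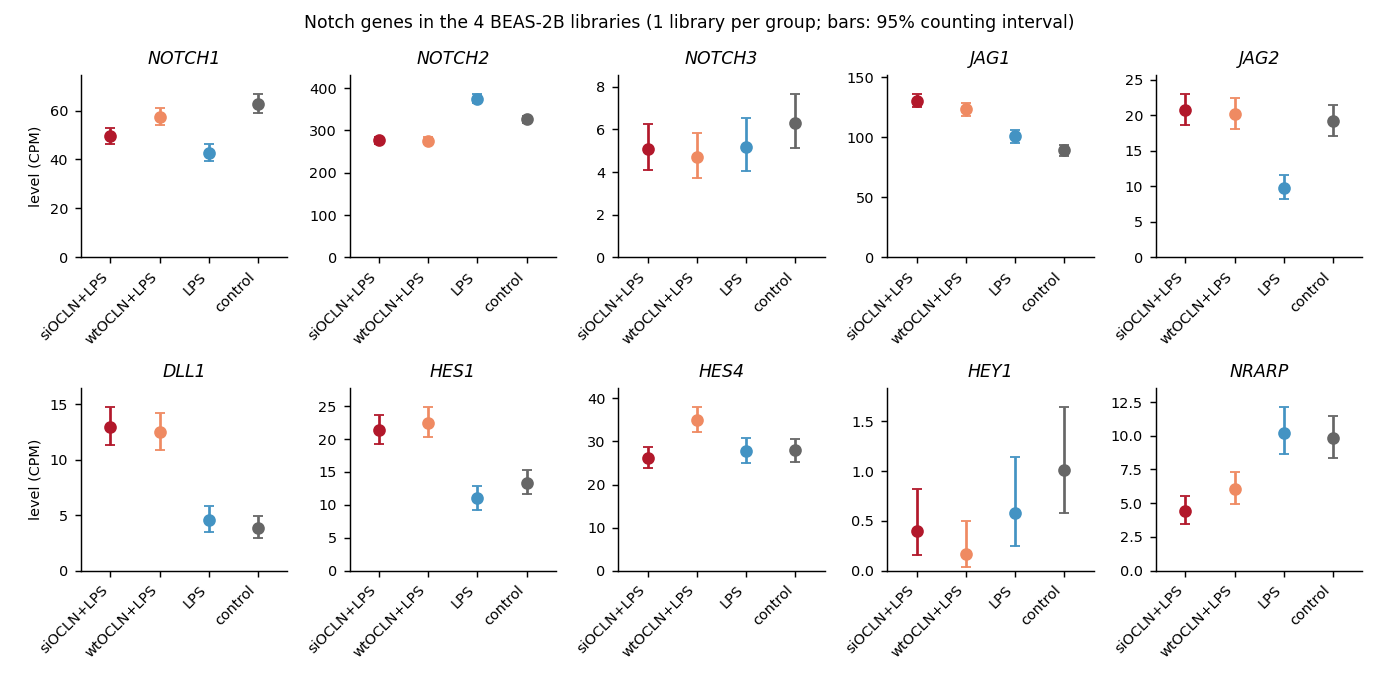
Level in CPM of each Notch gene in the 4 libraries, 1 point per library, with bars for the 95% counting interval and every axis starting at 0. DLL1 and HES1 are high in both transfected libraries, NRARP is low in both, and JAG2 is low in LPS alone (9.81 CPM).

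None of the 3 receptors lay 2-fold apart in any comparison. NOTCH1 was at 49.4 CPM in siOCLN+LPS, 57.4 CPM in the library labelled wtOCLN+LPS, 42.7 CPM in LPS and 62.7 CPM in control. As with JAG2, LPS was lowest, here 1.47-fold lower than control (1.32 to 1.63), and both transfected libraries lay between. NOTCH1 had folds over LPS of 1.16 (1.04 to 1.29) for siOCLN+LPS and 1.34 (1.21 to 1.49) for the library labelled wtOCLN+LPS.

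NOTCH2 ran the other way, highest in LPS. It was at 277 CPM in siOCLN+LPS, 276 CPM in the library labelled wtOCLN+LPS, 375 CPM in LPS and 326 CPM in control. Its folds were 0.738 (0.710 to 0.768) for siOCLN+LPS over LPS, 0.735 (0.707 to 0.764) for the library labelled wtOCLN+LPS over LPS, and 1.15 (1.11 to 1.20) for LPS over control. NOTCH2 shares sequence with the partial copies listed as NOTCH2NL, and how reads common to both were counted is not given in the sources used here, so its level is uncertain. NOTCH2NL had a fold of 0.645 for siOCLN+LPS over LPS, 0.624 for the library labelled wtOCLN+LPS over LPS, and 1.19 for LPS over control.

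NOTCH3 was low, at 5.09 CPM in siOCLN+LPS, 4.69 CPM in the library labelled wtOCLN+LPS, 5.19 CPM in LPS and 6.29 CPM in control. All 4 intervals overlapped, and no difference in NOTCH3 was detectable at this depth (72 to 100 counts). The remaining receptor gene, NOTCH4, was at 0.0721 to 0.441 CPM.

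The target genes did not share a direction. HES1, a repressor that is the best known Notch target, was at 21.3 CPM in siOCLN+LPS, 22.5 CPM in the library labelled wtOCLN+LPS, 11.0 CPM in LPS and 13.3 CPM in control, from 372, 393, 152 and 212 counts. Both transfected libraries were high, with intervals apart from those of LPS and control. HES1 had folds over LPS of 1.94 (1.60 to 2.36) for siOCLN+LPS and 2.05 (1.69 to 2.49) for the library labelled wtOCLN+LPS. Over control the folds were 1.60 (1.34 to 1.90) for siOCLN+LPS and 1.68 (1.42 to 2.00) for the library labelled wtOCLN+LPS. LPS over control gave 0.822 (0.663 to 1.02), within counting error of 1.

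HES4, a HES family repressor whose promoter letters are printed above, was highest in the library labelled wtOCLN+LPS. It was at 26.1 CPM in siOCLN+LPS, 35.0 CPM in the library labelled wtOCLN+LPS, 27.8 CPM in LPS and 27.9 CPM in control. The fold of siOCLN+LPS over the library labelled wtOCLN+LPS was 0.747 (0.660 to 0.844), and among the 9 members tested NRARP alone had a lower one. The fold of HES4 in the library labelled wtOCLN+LPS over LPS was 1.26 (1.11 to 1.43). With trends on transcript length and GC content removed across genes, an alternative added after seeing the data, its log2 ratio to LPS was -0.36 in siOCLN+LPS, and for the library labelled wtOCLN+LPS it was -0.01, in place of -0.09 and 0.32. Its nearest coding neighbour is the interferon-induced gene ISG15, on the opposite strand with a gap of 966 bases in GENCODE 29. ISG15 was at 125 CPM in siOCLN+LPS, 343 CPM in the library labelled wtOCLN+LPS, 15.3 CPM in LPS and 17.6 CPM in control, and its part in the HES4 values was not tested.

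HEY1 was close to the detection limit, with 7 counts in siOCLN+LPS, 3 in the library labelled wtOCLN+LPS, 8 in LPS and 16 in control. It reached 1 CPM in control alone (1.01 CPM). The fold of LPS over control was 0.573 (0.212 to 1.42), and that of the library labelled wtOCLN+LPS over LPS was 0.297 (0.0508 to 1.24), both holding 1 within counting error. For the library labelled wtOCLN+LPS over control it was 0.170 (0.0318 to 0.595), an interval below 1 that rests on 3 counts.

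NRARP, the feedback inhibitor, was at 4.41 CPM in siOCLN+LPS, 6.06 CPM in the library labelled wtOCLN+LPS, 10.2 CPM in LPS and 9.82 CPM in control, from 77, 106, 142 and 156 counts. Both transfected libraries were low, on the other side from HES1. Relative to LPS, NRARP was 2.32-fold lower in siOCLN+LPS (1.75 to 3.11) and 1.69-fold lower in the library labelled wtOCLN+LPS (1.31 to 2.20). It was 2.23-fold lower in siOCLN+LPS than in control (1.69 to 2.97), and LPS over control gave a fold of 1.04 (0.825 to 1.32). Between the transfected libraries, siOCLN+LPS was 1.37-fold lower (1.02 to 1.87).

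**Figure D3:**
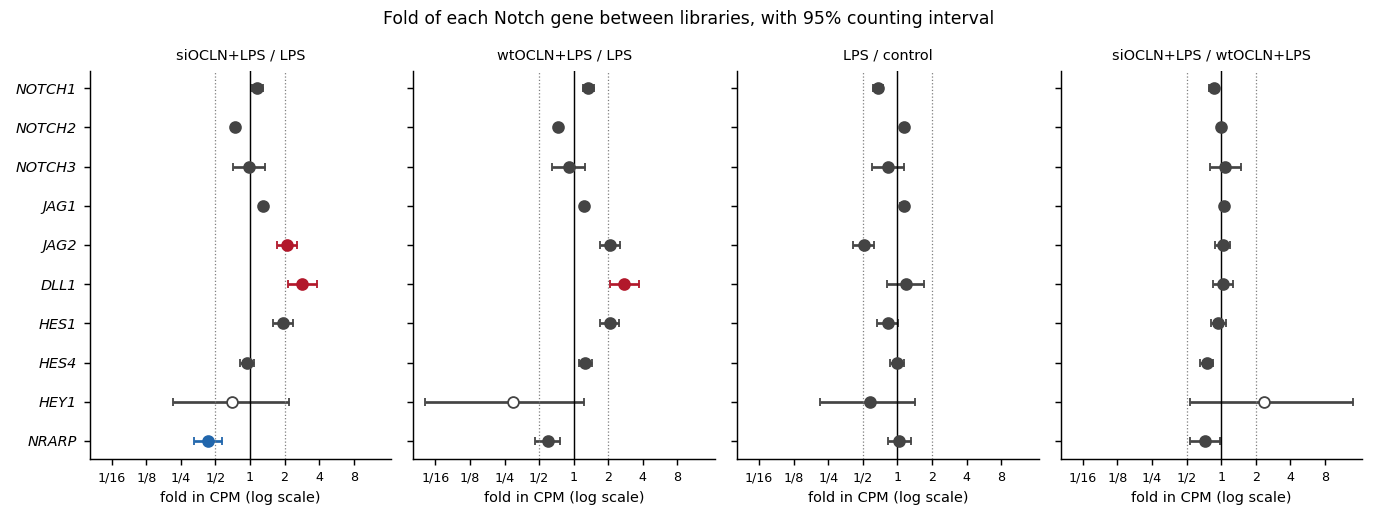
Fold in CPM of each Notch gene (log axis) in the 4 comparisons, with bars for the 95% counting interval. Dotted lines mark 2-fold, colour marks genes called past it on the log2(CPM + 1) scale, and open points are genes under 1 CPM in both libraries. DLL1 lies to the right of 1 in both comparisons of a transfected library with LPS, and NRARP to the left.

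For counts across genes, a gene was tested at 1 CPM or more in either library and called at 2-fold or more on the log2(CPM + 1) scale, where folds of low genes come out too small. In siOCLN+LPS against LPS, 9 of the 10 members were tested, and DLL1 (log2 ratio 1.33) and JAG2 (1.01) were called higher, where 3.32% of 13505 genes were. NRARP (-1.06) was called lower, where 3.92% were. HES1 lay just inside, at 0.90. The median log2 ratio of the 9 was 0.21, and that of all genes tested was -0.13.

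In the library labelled wtOCLN+LPS against LPS, 1 of 9 members tested, DLL1 (log2 ratio 1.28), was called higher, where 3.32% of 13493 genes were, and none was called lower, where 3.69% were. JAG2 and HES1 both lay just inside, at 0.97. The median was 0.32 for the members and -0.15 for all genes tested. DLL1 ranked 211 from the highest in siOCLN+LPS over LPS, and its rank for the library labelled wtOCLN+LPS was 258. These comparisons share the LPS library.

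In LPS against control all 10 members were tested, HEY1 only through its control value, and 0 were called in either direction, where 1.60% of 13551 genes were higher and 0.207% lower. JAG2 came nearest, at a log2 ratio of -0.90, followed by NOTCH1 at -0.54. The median was -0.12 for the members and -0.09 for all genes tested. In siOCLN+LPS against the library labelled wtOCLN+LPS, 0 of 9 members tested were called, where 0.0763% of 13109 genes were higher and 0.290% lower. The widest log2 ratios there were -0.41 for HES4 and -0.38 for NRARP, and the other 7 lay between -0.21 and 0.10.

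Set against control in place of LPS, DLL1 was called higher in siOCLN+LPS, where 3.94% of 13584 genes were, and also for the library labelled wtOCLN+LPS, where 3.91% of 13569 were. NRARP was called lower in siOCLN+LPS, where 5.44% of genes were, and not in the library labelled wtOCLN+LPS, where 4.91% were.

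A lower threshold of 1.5-fold brought in HES1 as higher than LPS in siOCLN+LPS, beside DLL1 and JAG2, where 9.09% of all genes tested were higher, and NRARP remained the 1 member lower, where 15.3% were. The library labelled wtOCLN+LPS gave the same 4 members against LPS, with 8.59% of all genes higher and 15.1% lower. In LPS against control JAG2 was the 1 member past 1.5-fold, on the lower side, where 2.80% of genes were lower and 3.45% higher. Between the transfected libraries 0 members passed it, where 0.755% of genes were higher and 1.19% lower.

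Another scaling shifted these calls. With edgeR's TMM factors in place of library totals, HES1 joined DLL1 and JAG2 as higher than LPS in both transfected libraries. NRARP was then no longer called lower, with a fold of 0.476 in siOCLN+LPS over LPS. Over all genes tested, TMM gave 603 higher (4.48%) and 378 lower (2.81%) in siOCLN+LPS against LPS, where library totals gave 449 and 530. For the library labelled wtOCLN+LPS against LPS it gave 618 higher (4.59%) and 334 lower (2.48%), where library totals gave 448 and 498. The same 3 members were called with DESeq2's median ratio, where 4.41% of genes were higher and 2.84% lower in siOCLN+LPS against LPS and 4.57% and 2.49% for the library labelled wtOCLN+LPS. The median log2 ratio of all genes tested with TMM was 0.01 in both comparisons. HES4 in siOCLN+LPS over LPS changed side of 1 between scalings, at 0.939 with library totals and 1.04 with TMM.

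**Figure D4:**
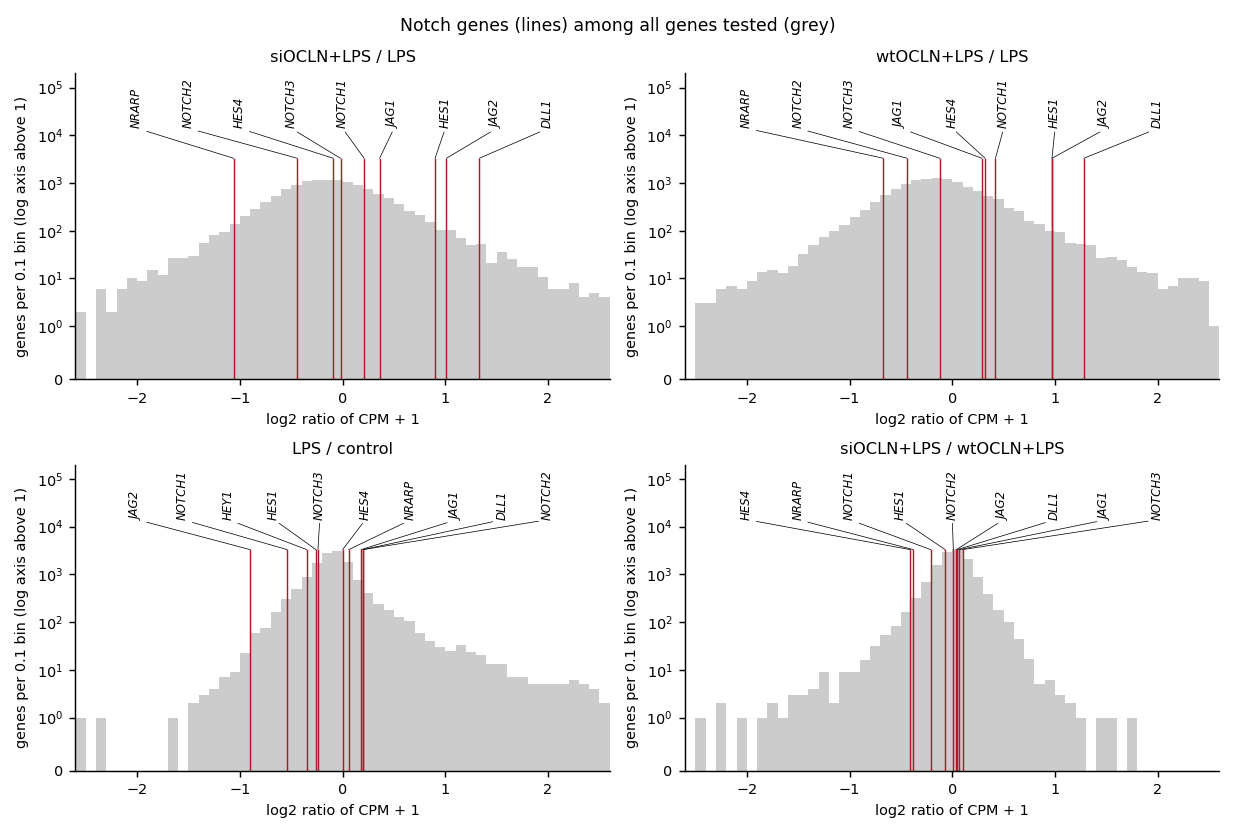
Log2 ratio of CPM + 1 for all genes tested (grey, genes per bin of 0.1, log axis above 1) and for each tested Notch gene (red lines) in the 4 comparisons; the far tails, which hold no member, are not drawn. In both comparisons of a transfected library with LPS, DLL1, JAG2 and HES1 lie in the right shoulder, and in siOCLN+LPS over the library labelled wtOCLN+LPS all 9 members lie within 0.41 of 0.

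The transfected libraries also differed from the others in epithelial markers. The 8 airway epithelial markers summed to 3318 CPM in siOCLN+LPS, 3298 CPM in the library labelled wtOCLN+LPS, 1651 CPM in LPS and 1613 CPM in control. In each library 7 of 8 reached 1 CPM. The close sums of LPS and control hide opposite moves. ELF3 stood at 470, 446, 234 and 5.41 CPM in these 4 libraries. KRT8 went from 442 CPM in control to 372 CPM in LPS, and KRT18 from 334 to 254 CPM. Of 7 markers tested in LPS against control, 2 had log2 ratios above 0 and 5 below 0. EPCAM (1.26, 1.60, 2.67 and 2.01 CPM) and CLDN4 (0.401, 0.171, 0.865 and 0.441 CPM) ran against the sums. The 10 airway basal markers summed to 1432, 1609, 983 and 1174 CPM in the same libraries. Of the 8 basal markers tested, 3 were called higher and 1 lower in each transfected library against LPS. Over all genes tested, 3.32% were higher in each, and 3.92% were lower in siOCLN+LPS and 3.69% for the library labelled wtOCLN+LPS. TP63, which marks basal cells, was at 12.2 CPM in siOCLN+LPS, 21.1 CPM in the library labelled wtOCLN+LPS, 2.96 CPM in LPS and 2.01 CPM in control. SNAI2 went the other way, at 2.52, 2.74, 7.57 and 8.24 CPM in these libraries, and KRT5 was at 18.9 to 22.4 CPM. Secretory markers summed to 21.0, 19.1, 10.5 and 6.23 CPM, with MUC5AC and MUC5B the 2 of 10 at 1 CPM or more, and ciliated markers to 10.2, 11.0, 15.1 and 18.3 CPM. The 8 fibroblast markers summed to 171, 179, 129 and 152 CPM, and of the 3 at 1 CPM or more PDGFRB was at 49.4 CPM in siOCLN+LPS, 55.4 CPM in the library labelled wtOCLN+LPS, 13.8 CPM in LPS and 12.3 CPM in control. The other two, COL1A1 at 55.2 to 62.7 CPM and THY1 at 52.7 to 81.6 CPM, did not follow this order. Haematopoietic markers summed to 10.9, 16.0, 25.1 and 26.4 CPM, with CD3E at 0 counts in all 4. The part of these differences in the Notch gene values was not tested, and fewer cells of a type cannot be told apart from less RNA per cell.

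Among 59 other Notch pathway genes, all found in the tables, most lay within 2-fold. In siOCLN+LPS against LPS, 2 of 48 tested were higher and 1 lower (median log2 ratio -0.11), where 3.32% of all genes were higher and 3.92% lower. In the library labelled wtOCLN+LPS against LPS, 3 of 49 were higher and 1 lower (median -0.09), where these shares were 3.32% and 3.69%. In LPS against control 0 of 49 were called (median -0.12), where the shares were 1.60% and 0.207%. In siOCLN+LPS against the library labelled wtOCLN+LPS 0 of 48 were called (median -0.02), where they were 0.0763% and 0.290%. Set against control in place of LPS, KAT2B and MAML2 were higher and MFNG and FBXW7 lower of 49 in siOCLN+LPS, where 3.94% of all genes were higher and 5.44% lower. Against control in the library labelled wtOCLN+LPS, MAML2 and MAML3 were higher and MFNG and FBXW7 lower of 49, where 3.91% and 4.91% were. The calls of NEURL1B in siOCLN+LPS and of KAT2B in the library labelled wtOCLN+LPS thus held against LPS only. FBXW7, a ubiquitin ligase subunit that targets the Notch intracellular domain and was chosen after its values were seen, was at 18.8 CPM in siOCLN+LPS, 19.6 CPM in the library labelled wtOCLN+LPS, 37.2 CPM in LPS and 40.6 CPM in control. With 1 library per group, counts this small beside the shares over all genes show nothing particular to the list.

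Among the 17 tested genes of the nuclear complex and its corepressors, 1 was called higher than LPS in siOCLN+LPS, and for the library labelled wtOCLN+LPS the count was 3. Of all genes tested, 3.32% were higher in each comparison, and counts this small show nothing particular to this role. KAT2B, an acetyltransferase recruited as a coactivator, was at 90.0 CPM in siOCLN+LPS, 68.9 CPM in the library labelled wtOCLN+LPS, 30.9 CPM in LPS and 39.6 CPM in control. Its folds over LPS were 2.92 (2.62 to 3.25) for siOCLN+LPS and 2.23 (2.00 to 2.50) for the library labelled wtOCLN+LPS. The Mastermind-like coactivator MAML2 was at 42.5 CPM in siOCLN+LPS, 48.8 CPM in the library labelled wtOCLN+LPS, 21.1 CPM in LPS and 20.2 CPM in control. Its relative MAML3 was at 3.89, 5.37, 1.66 and 1.89 CPM in these libraries. Both were called higher against LPS for the library labelled wtOCLN+LPS, with folds of 2.31 (2.02 to 2.65) for MAML2 and 3.24 (2.04 to 5.36) for MAML3. In siOCLN+LPS over LPS the folds were 2.01 (1.76 to 2.31) for MAML2 and 2.35 (1.44 to 3.95) for MAML3, just short of a call on the log2(CPM + 1) scale.

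RBPJ, the DNA-binding partner of Notch, was at 90.1 CPM in siOCLN+LPS, 101 CPM in the library labelled wtOCLN+LPS, 119 CPM in LPS and 132 CPM in control. RBPJ lies outside the naming rule for the list and was chosen after its values were seen. SPEN and NCOR1, which act as corepressors, lay within 1.5-fold in every comparison, with log2 ratios between -0.30 and 0.38.

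MFNG, the Manic fringe glycosyltransferase that modifies Notch receptors, had the lowest log2 ratio to LPS of the other pathway genes tested, in both transfected libraries. It had 11 counts in siOCLN+LPS, 7 in the library labelled wtOCLN+LPS, 52 in LPS and 97 in control. Relative to LPS, MFNG was 5.96-fold lower in siOCLN+LPS (3.07 to 12.7) and 9.37-fold lower in the library labelled wtOCLN+LPS (4.24 to 24.5). Its relatives LFNG and RFNG were not called in any comparison. NEURL1B, a ubiquitin ligase of the Neuralized family, was at 49.6 CPM in siOCLN+LPS, 42.3 CPM in the library labelled wtOCLN+LPS, 22.4 CPM in LPS and 27.0 CPM in control, a fold of 2.21 (1.94 to 2.53) for siOCLN+LPS over LPS.

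None of the 9 genes of the machinery that cuts the receptor was called in the 4 comparisons. Of all genes tested, 7.25% were called in either direction in siOCLN+LPS against LPS and 7.01% for the library labelled wtOCLN+LPS against LPS. This share was 1.81% in LPS against control and 0.366% between the transfected libraries, so 0 of 9 shows nothing particular to this role. APH1A, a part of gamma-secretase, was at 155 to 168 CPM and the protease ADAM10 at 149 to 176 CPM. POFUT1, which adds O-fucose to Notch receptors, was at 110 to 129 CPM, and the glycosyltransferase genes EOGT and RFNG were at 34.8 to 43.1 CPM and 27.6 to 44.6 CPM. The ubiquitin ligases ITCH and MIB1 had folds over LPS of 0.727 and 0.810 in siOCLN+LPS. They ranked 3115 and 4727 from the lowest of 13505 genes tested, so many genes lay lower. For the library labelled wtOCLN+LPS these folds were 0.743 and 0.745, at ranks 3391 and 3436 from the lowest of 13493. NUMBL, of the Numb family of Notch inhibitors, was at 96.3 to 125 CPM. Of the other HES and HEY genes, HES6 was at 8.08 to 12.0 CPM, HES7 at 2.57 to 3.21 CPM and HES2 at 0.577 to 1.49 CPM, and HES5 had 0 counts in all 4 libraries. Among ligand-like genes, DLK2 was 2.07-fold lower in LPS than in control (1.59 to 2.70). It was not called, at a ratio of -0.94 on the log2(CPM + 1) scale. DNER was at 2.17 to 3.89 CPM.

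**Figure D5:**
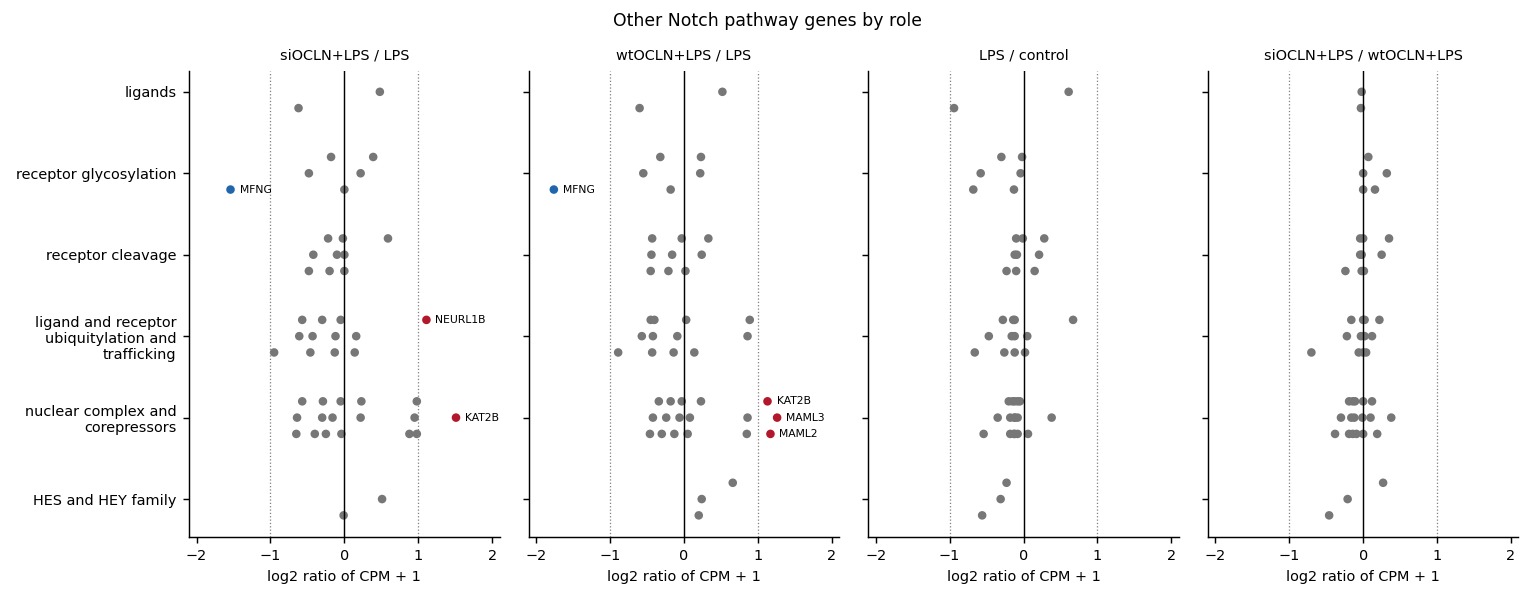
Log2 ratio of CPM + 1 for the tested genes among 59 other Notch pathway genes, by role, in the 4 comparisons; dotted lines mark 2-fold and named points lie past it. MFNG lies on the left and KAT2B on the right in both comparisons of a transfected library with LPS. On this scale no gene passes 2-fold in LPS over control or in siOCLN+LPS over the library labelled wtOCLN+LPS.

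The genes whose pattern over the 4 libraries lay nearest to that of a member were looked up for the 3 members with the widest range, DLL1, NRARP and JAG2, among 11370 genes at 5 CPM or more in any library. Likeness was the Euclidean distance between log2(CPM + 1) values centred on the mean of each gene. For DLL1, the nearest were MEGF6 (distance 0.0479), POLR2L (0.0676) and MARCKS (0.0899). MEGF6 was at 36.5 CPM in siOCLN+LPS, 34.4 CPM in the library labelled wtOCLN+LPS, 13.8 CPM in LPS and 12.3 CPM in control. NR1D2 (0.0404), HECA (0.0520) and the antisense gene CTBP1-AS (0.0597) lay nearest to NRARP, and COL18A1 (0.102) and ZBTB7B (0.150) to JAG2. With 4 libraries many genes share a pattern, and these distances are a description only.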

How the data were processed

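RNA from BEAS-2B cells was made into 4 libraries with a NEBNext Ultra II Directional kit from 1.3 µg of total RNA, per the labels' protocols. The authors deposited whole-number counts per gene symbol, with no normalization. The submitters' processing notes name TopHat, Cufflinks and hg19; the counting tool, its annotation and its strand setting were not given in the sources used here. Counts were scaled to CPM by library total. Folds are ratios of CPM with exact 95% Clopper-Pearson intervals, which cover counting error only, since each group held 1 library. No molecular identifiers are mentioned, so duplicate reads may have been counted separately, and the intervals may be too narrow. Calls need 1 CPM in either library and 2-fold on the log2(CPM + 1) scale. With 1 library per group there was no spread to fit, so the planned quasi-likelihood test of edgeR was not run and no p-value was computed. The members and gene lists were chosen with earlier results of these data known. All members are named; of the other pathway genes, those called in any comparison and up to 3 of highest mean CPM per role, with exceptions stated; a few genes that these rules name are not reported here. Other pseudocounts, filters, thresholds and scalings (edgeR 4.0.16, DESeq2 1.42.0 in R 4.3.3) were tried, and the steps were checked on simulated data. Python 3.11.15, pandas 2.3.3 and SciPy 1.17.1 were used. GENCODE 29 gave transcript lengths and gene neighbours and RefSeq (GRCh38.p14) the promoters; neither is on hg19, so no measured value was placed by their coordinates.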

Additional observations from a re-analysis of the deposited data

How the results depend on the processing

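No paired analysis was possible because each group held 1 library, and for the same reason no library could be left out of a group. Of 140 member folds recomputed under other scalings, 120 stayed within their counting interval and 20, all of NOTCH2, JAG1 or NOTCH1, did not. In siOCLN+LPS over LPS, TMM gave 0.817 in place of 0.738 for NOTCH2 and 1.43 in place of 1.29 for JAG1. For these 20 folds the choice of scaling thus moved the value by more than the counting error printed with it. Under these scalings 0 folds of called genes changed side of 1. Folds of NOTCH2, NOTCH3 and HES4 that were not called did so: with TMM, NOTCH2 was at 0.991 in siOCLN+LPS over the library labelled wtOCLN+LPS, NOTCH3 was at 1.09 in siOCLN+LPS over LPS and at 1.01 for the library labelled wtOCLN+LPS over LPS, and HES4 at 1.04 in siOCLN+LPS over LPS and 1.07 in LPS over control. Of 80 counts of called genes under alternatives, 57 stayed within 1.5 times the value reported and 23 did not; the cause was not tested. For the 10 Notch genes in siOCLN+LPS against LPS, the count of 3 became 0 with a pseudocount of 5. In the library labelled wtOCLN+LPS against LPS, the count of 1 became 3 with a pseudocount of 0.1 or with TMM, median ratio or upper quartile scaling (DLL1, HES1 and JAG2), 4 at 1.5-fold and 0 with a pseudocount of 5. In LPS against control, the count of 0 became 1 at 1.5-fold, JAG2. For the other pathway genes in siOCLN+LPS against LPS, the count of 3 became 5 with a pseudocount of 0.1, 1 with a pseudocount of 5, 13 at 1.5-fold and 6 with TMM, median ratio or upper quartile scaling. Of all genes tested there, 24.3% passed 1.5-fold in either direction, and TMM gave 4.48% higher and 2.81% lower. Shares over all genes were not computed for other pseudocounts or with trends removed. The count of 3 became 6 with TMM without the library labelled wtOCLN+LPS and 5 with trends on length and GC content removed. Both alternatives were chosen after seeing the data. Removing those trends also ended the call of JAG2 in siOCLN+LPS against LPS. In the library labelled wtOCLN+LPS against LPS, the count of 4 became 2 with a pseudocount of 5, 11 at 1.5-fold and 8 with TMM or median ratio scaling. Of all genes tested there, 23.7% passed 1.5-fold in either direction, and TMM gave 4.59% higher and 2.48% lower. In LPS against control, the count of 0 became 2 with a pseudocount of 0.1 and 5 at 1.5-fold, which 6.24% of all genes passed. In siOCLN+LPS against the library labelled wtOCLN+LPS the count of 0 became 1 at 1.5-fold, DTX3L, where 1.95% of all genes passed. DLL1 kept its call against LPS in both transfected libraries under the alternatives run, except with a pseudocount of 5. Against control it was called at the reported settings, the only ones run there. Depth limits genes of few counts, such as HEY1 (3 to 16) and HES2 (8 to 26), and the spread between cultures is unknown.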
